A study of Mus musculus with 12 samples.

Results

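Mast cell and basophil genes were followed array by array in mouse marrow-derived dendritic cells of 2 genotypes, wild type or deficient in Ezh2, the histone methyltransferase of the Polycomb repressive complex, and at 2 stages, untreated or LPS-treated. The set holds 9 genes, Hdc, Cpa3, Mcpt8, Ms4a2, Fcer1a, Kit, Gata2, Prg2 and Il1rl1, matched to probes by gene symbol. It was chosen with earlier results of these data known. A probe with 1 symbol was found for 8 of them, and 7 passed the detection filter, among 10908 genes tested in all. Il1rl1, the receptor for interleukin-33, had no such probe and is not analysed here. Ms4a2, the beta chain of the high-affinity IgE receptor, was detected on 0 of 12 arrays.

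The study used 12 Illumina bead arrays in 4 groups of 3. The labels' protocols name Ezh2f/f mice, in which the Ezh2 gene carries recombination sites but no recombinase is present, and Ezh2f/f; Mx-cre mice, taken here as the sources of wild type and Ezh2-deficient cells. The floxed allele is therefore shared by all 4 groups, and the genotypes differ in the Mx-cre transgene, whose promoter is interferon-inducible and is not restricted to dendritic cells. The strain is given as C57/B6, and neither an age nor a schedule for inducing Cre is given in the sources used here. Marrow was cultured with GM-CSF and IL-4 and from day 2 with GM-CSF alone, for 6 or 7 days. Immature cells were left untreated, and mature cells received 100 ng/ml LPS (bacterial lipopolysaccharide) overnight. Some mature cells were also kept 6 h without serum, and the labels do not say which. Nothing states that replicates came from separate animals or cultures, so the p-values measure the spread between these arrays, which may be technical.

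Mast cells and basophils are rare granulocytes that bind IgE through the receptor built from Fcer1a, Ms4a2 and Fcer1g, and that release histamine and proteases from granules. Hdc makes histamine from histidine, Cpa3 is the carboxypeptidase of mast cell and basophil granules, Mcpt8 is a protease of mouse basophils, and Prg2 is the major basic protein of eosinophil granules. Kit is the receptor for stem cell factor on mast cells and blood progenitors, and Gata2 is a transcription factor of both lineages. GM-CSF marrow cultures are mixtures of myeloid cells, and Hdc is also known to be made by macrophages and other myeloid cells after LPS.

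Promoter windows of 300 bases, from 250 before to 50 after the RefSeq start site (GRCm38.p6), are shown for 4 genes. These include Hdc, which passed the LPS test in both genotypes, and Cpa3, which passed it in Ezh2-deficient cells only. Mcpt8 and Fcer1a are shown because their levels ran together across the arrays. Kit, which passed the LPS test in wild type cells only, is described below but not printed. Capitals mark the GATA motifs, which are AGATAA or its variant AGATAG and likewise TGATAA or its variant TGATAG. Both strands were searched, so that a minus-strand match reads as its reverse complement. The windows lie on the minus strand of chr2:126618629-126618928 for Hdc, chr3:20242132-20242431 for Cpa3, chr14:56085148-56085447 for Mcpt8 and chr1:173227180-173227479 for Fcer1a.
Hdc: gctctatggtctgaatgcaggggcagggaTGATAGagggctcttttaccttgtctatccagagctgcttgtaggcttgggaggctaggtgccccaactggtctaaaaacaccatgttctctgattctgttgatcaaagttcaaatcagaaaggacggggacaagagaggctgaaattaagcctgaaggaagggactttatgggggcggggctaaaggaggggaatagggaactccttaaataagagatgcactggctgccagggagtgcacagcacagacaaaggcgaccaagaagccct
Cpa3: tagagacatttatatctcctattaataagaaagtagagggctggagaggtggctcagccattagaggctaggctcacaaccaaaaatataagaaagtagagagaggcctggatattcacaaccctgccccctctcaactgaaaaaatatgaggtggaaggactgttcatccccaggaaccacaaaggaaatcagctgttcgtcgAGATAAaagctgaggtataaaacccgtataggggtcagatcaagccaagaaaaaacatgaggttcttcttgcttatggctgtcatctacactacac
Mcpt8: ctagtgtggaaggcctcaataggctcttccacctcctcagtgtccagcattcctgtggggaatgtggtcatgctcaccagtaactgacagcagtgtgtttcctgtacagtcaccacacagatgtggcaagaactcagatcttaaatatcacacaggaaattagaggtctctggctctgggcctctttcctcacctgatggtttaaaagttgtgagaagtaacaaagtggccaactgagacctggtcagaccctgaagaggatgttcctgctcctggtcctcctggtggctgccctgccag
Fcer1a: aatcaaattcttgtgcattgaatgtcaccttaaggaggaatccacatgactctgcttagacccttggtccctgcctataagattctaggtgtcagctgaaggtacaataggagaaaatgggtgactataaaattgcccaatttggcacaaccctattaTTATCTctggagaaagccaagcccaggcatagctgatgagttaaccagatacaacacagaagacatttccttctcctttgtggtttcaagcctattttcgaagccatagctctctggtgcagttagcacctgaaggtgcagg

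Hdc held 1 match, to TGATAG, at positions -221 to -216 from the start. Cpa3 held AGATAA at -46 to -41, just ahead of a TATAAA at -31 to -26, and Fcer1a held AGATAA on the minus strand at -92 to -87. The Mcpt8 window held none. Of the 11 windows of the members, 6 held at least 1 match, against 29.8% of all 32851 windows of this length. Besides those of Hdc, Cpa3 and Fcer1a, the windows with a match belonged to Ms4a2 and Il1rl1, which were not tested for expression. Some members have 2 windows, and those of Kit overlap almost fully, so the windows are not separate units. By gene, 5 of the 8 members with a window held a match. Whether the members differ from all windows was not tested. The Kit and Gata2 windows held none and were rich in G and C, at 69.0% for Kit and 69.3% for the upstream Gata2 window, beside a median of 52.7% over all windows. A match describes the letters in the window and not binding.

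The arrays detected 17892 to 19611 of 45281 probes each. Of 14 dendritic cell marker genes, 12 were detected on all 12 arrays, with Cd74, the MHC class II invariant chain, between 15.81 and 15.97 on the log2 scale. The exceptions were Cd209a, detected on 5 arrays, and Flt3, detected on 0. Macrophage markers were present too, with 8 of the 9 that had a probe detected on all 12 arrays, and so were 9 of 14 neutrophil markers. The arrays of replicate number 3 went against their labels, by Cdkn2a under both genotypes and by Il6 under the wild type labels only. Il6, which LPS induces, stood at 11.99 where the label says wild type immature and at 4.93, not detected, where it says wild type mature. Under the Ezh2-deficient labels it read 5.90 as immature and 12.08 as mature, the order of those labels. Cdkn2a, a locus that Ezh2 represses, read 8.08 and 7.63 under the wild type labels of replicate 3 and, at 4.70 and 4.57, was not detected under its Ezh2-deficient labels. In replicates 1 and 2 that probe stood at 7.28 to 7.84 in Ezh2-deficient cells and was not detected in wild type cells. Ezh2 itself did not pass the test at either detected probe in any genotype comparison. At the dimmer of these probes it read 6.58 and 6.03 in wild type immature cells and was not detected in Ezh2-deficient immature cells, at 4.96 and 5.06. In mature cells the same probe read 6.90 and 7.03 in wild type and 6.10 and 6.61 in Ezh2-deficient cells. The brighter probe read 9.78 and 9.57 in wild type immature cells against 9.62 and 9.39 in Ezh2-deficient immature cells, with changes of -0.17 in immature and -0.02 in mature cells. Where these probes lie relative to the deleted part is not given in the sources used here. All tests below therefore rest on the 8 arrays of replicates 1 and 2, and replicate 3 is given apart, as labelled.

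Levels are log2 values after background correction and quantile normalization. A gene was called when its adjusted p (limma, Benjamini-Hochberg over 10908 genes) was under 0.05, and a change is given with its standard error (SE). Levels of different genes are not compared, because each probe has its own brightness.

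LPS raised Hdc strongly in both genotypes and lowered Kit in wild type and Cpa3 in Ezh2-deficient cells, while the other tested members were not called. In wild type cells 2 of the 7 tested members were called, 1 higher and 1 lower, against 30.3% of all genes (12.6% higher, 17.7% lower). The count in Ezh2-deficient cells was also 2 of 7, 1 in each direction, against 36% of all genes (15.2% higher, 20.8% lower). These shares are near the background, so the number of members called says nothing particular about them. The median member change was -0.67 in wild type and -0.33 in Ezh2-deficient cells, beside -0.03 over all genes in each. These medians changed sign with 1 array left out: the wild type value was 0.40 without wild type mature 2 and 0.05 without wild type immature 1, and the Ezh2-deficient value was 0.42 without Ezh2-deficient immature 1 and 0.27 without Ezh2-deficient mature 2. They were -1.18 without wild type mature 1, -1.24 without wild type immature 2, -1.10 without Ezh2-deficient immature 2 and -0.59 without Ezh2-deficient mature 1.

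Hdc, the histamine-forming enzyme, read 9.30 and 9.20 in wild type immature cells and 13.48 and 13.57 in wild type mature cells. In Ezh2-deficient cells it read 8.53 and 8.06 when immature and 13.63 and 13.14 when mature. Every mature array lay far above every immature array, at 13.14 to 13.63 against 8.06 to 9.30. The rise was 4.27 in wild type cells (SE 0.22, 19.3-fold, adjusted p = 5.8e-05 in limma), which placed Hdc at rank 30 of 10908 genes ordered from the largest rise. In Ezh2-deficient cells it was 5.09 (SE 0.22, 34.2-fold, adjusted p = 2.1e-05 in limma), at rank 23. A second Hdc probe rose by 4.80 and 5.58 in the same comparisons. Under the wild type labels of replicate 3, Hdc read 13.23 as immature and 7.64 as mature, the reverse of the order in replicates 1 and 2. Those labelled Ezh2-deficient read 8.64 immature and 13.21 mature. With all 12 arrays fitted as labelled the wild type change fell to 0.99 (adjusted p = 1 in limma) and the Ezh2-deficient change was 4.92 (adjusted p = 0.0668).

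Most other mast cell granule genes were not detected beside Hdc. Of the 13 symbols on the granule list, 12 had a probe and 4 passed the filter. The tryptases Tpsb2 and Tpsab1, the chymases Cma1, Mcpt1, Mcpt2, Mcpt4 and Mcpt9, and Slc18a2, the transporter that loads histamine into granules, were detected on 0 of 12 arrays. Of the 4 tested, 1 rose and 1 fell in each genotype. Over all genes 12.6% rose and 17.7% fell in wild type cells, and 15.2% rose and 20.8% fell in Ezh2-deficient cells. The same shares apply to the LPS counts of the other lists below, and no list was tested as a set. Srgn, the granule proteoglycan that many blood cells make, rose by 2.20 in wild type (SE 0.25, adjusted p = 0.00081 in limma) and 2.53 in Ezh2-deficient cells. Hpgds, which makes prostaglandin D2, read 8.15 and 9.05 in wild type immature cells and 5.20, not detected, and 5.34 in wild type mature cells. It fell by 3.33 in wild type cells (SE 0.41, adjusted p = 0.0010 in limma). In Ezh2-deficient mature cells Hpgds was not well above background on either array, so its fall there was at least 11.54-fold, the ratio to the lowest level among detected probes.

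Cpa3 went the other way from Hdc. It read 8.92 and 7.99 in wild type immature cells and 7.88 and 6.52 after LPS. Ezh2-deficient cells read 9.36 and 8.82 when immature and 7.59 and 6.96 when mature. The immature arrays lay above the mature arrays in each genotype, by a narrow gap in wild type cells. The fall was 1.82 in Ezh2-deficient cells (change -1.82, SE 0.50, 3.52-fold lower, adjusted p = 0.0233 in limma). In wild type cells the change of -1.25 (SE 0.50, adjusted p = 0.0939) did not pass. The difference between the genotypes' LPS changes was -0.56 (95% interval -2.18 to 1.06, adjusted p = 1), so the genotypes were not shown to differ. The call rested on few arrays: it was lost without Ezh2-deficient immature 1 (-1.55, adjusted p = 0.132), immature 2 (-2.09, 0.0584) or mature 2 (-1.50, 0.100), within a range of 0.00802 to 0.132 over the arrays left out in turn. The wild type change passed without wild type mature 1 (-1.93, adjusted p = 0.0245, range 0.0245 to 0.399). Another Cpa3 probe gave -1.63 in wild type and -1.48 in Ezh2-deficient cells. Neither change passed among the 21049 probes tested (adjusted p = 0.0504 and 0.0621 in limma). A dimmer Cpa3 probe, detected on 10 of 12 arrays, gave smaller changes of -0.61 in wild type and -0.69 in Ezh2-deficient cells. These did not pass either (adjusted p = 0.153 and 0.101 in limma). Replicate 3, immature then mature, read 6.80 and 7.79 under the wild type labels and 7.18 and 6.16 under the Ezh2-deficient labels. With all 12 arrays as labelled the Ezh2-deficient change was -1.55 (adjusted p = 0.109).

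Kit, the stem cell factor receptor, read 9.96 and 9.71 in wild type immature cells and 8.36 and 9.07 in wild type mature cells. In Ezh2-deficient cells it read 9.67 and 10.18 before LPS and 8.92 and 9.33 after. Immature and mature arrays did not overlap in either genotype. These values come from 1 probe, and the other Kit probes, detected on 2 and 0 of 12 arrays, did not pass the filter. The wild type change of -1.12 (SE 0.29, 2.17-fold lower, adjusted p = 0.0227 in limma) passed. The Ezh2-deficient change of -0.80 (SE 0.29, adjusted p = 0.0660) did not, and the difference between them was 0.32 (95% interval -0.63 to 1.27, adjusted p = 1). The wild type call was lost without wild type immature 1 (-0.996, adjusted p = 0.120), immature 2 (-1.24, 0.0719) or mature 1 (-0.76, 0.114), within a range of 0.0123 to 0.120 over the arrays left out in turn. The Ezh2-deficient change passed without wild type mature 1 or mature 2 (adjusted p = 0.0369 and 0.0374, range 0.0369 to 0.316). Replicate 3, again immature then mature, stood at 8.71 and 9.80 under the wild type labels and at 10.37 and 9.06 under the Ezh2-deficient labels. With all 12 arrays as labelled the wild type change was -0.38 (adjusted p = 1).

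Gata2, the transcription factor of mast cells and progenitors, was not called. It read 8.88 and 8.57 in wild type immature cells, 9.46 and 8.63 in wild type mature cells, 8.78 and 8.73 in Ezh2-deficient immature cells, and 9.19 and 9.11 in Ezh2-deficient mature cells. The 2 wild type groups overlapped, and in Ezh2-deficient cells the mature arrays lay above the immature ones. Neither LPS change passed, at 0.32 in wild type (SE 0.27, adjusted p = 0.411 in limma) and 0.39 in Ezh2-deficient cells (SE 0.27, adjusted p = 0.293). The replicate 3 arrays spanned 8.34 to 9.12. Counting groups that do not overlap, 3 members did so for LPS in wild type cells, against 67.3% of all genes, and 4 in Ezh2-deficient cells, against 69.2%.

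**Figure D1:**
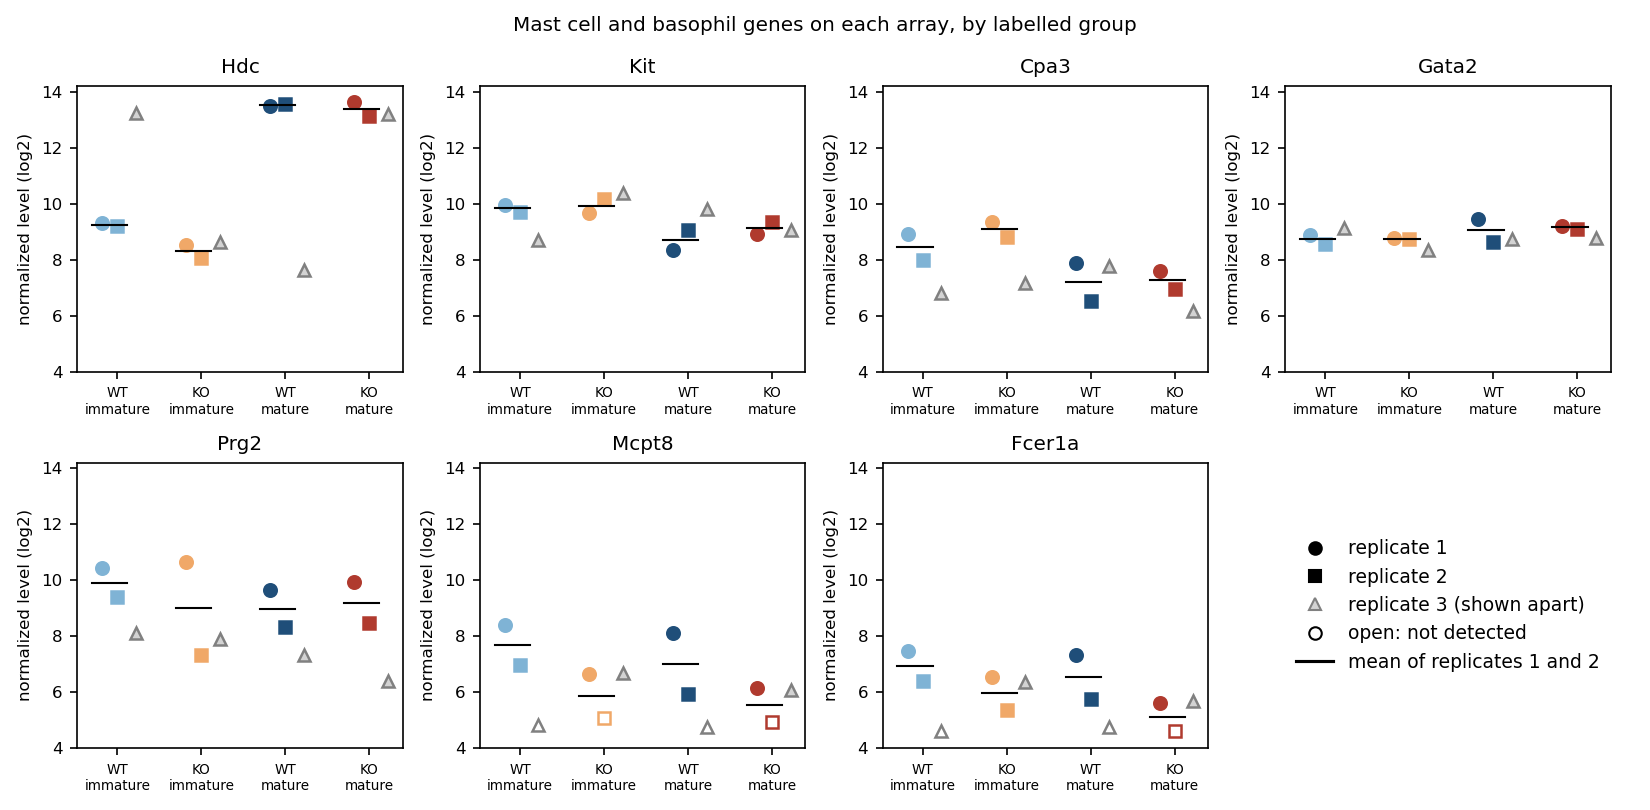
Normalized level (log2) of the 7 tested genes on each of the 12 arrays, by labelled group, with bars at the mean of replicates 1 and 2, replicate 3 as grey triangles and open symbols where a probe was not detected. Hdc stands at 13.14 to 13.63 in the mature groups and 8.06 to 9.30 in the immature groups, with the replicate 3 arrays labelled wild type in the opposite order, while Mcpt8, Fcer1a and Prg2 vary widely within groups.

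The genotype comparison, Ezh2-deficient against wild type, gave no call among the members at either stage. In immature cells 0 of 7 members were called against 0.0275% of all genes, and in mature cells 0 of 7 against 0.0183%. Averaged over both stages the count was also 0 of 7, against 0.055% (0.0458% higher, 0.00917% lower). At an unadjusted p under 0.05 the members numbered 1, 0 and 3 in the immature, mature and averaged comparisons, and all genes 333, 522 and 665. Groups did not overlap for 2 members in immature cells, against 31% of all genes, for 1 in mature cells, against 27.9%, and for 0 over both stages, against 7.43%. The median member change was -0.92 in immature and 0.07 in mature cells, beside -0.01 over all genes in each.

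Mcpt8, the basophil protease, had a lower mean in Ezh2-deficient cells at each stage, without passing the test. It read 8.41 and 6.97 in wild type immature cells, against 6.64 and 5.08, the latter not detected, in Ezh2-deficient immature cells. In mature cells the levels were 8.10 and 5.94 in wild type, and 6.14 and 4.94, the latter not detected, in Ezh2-deficient cells. The immature genotypes did not overlap and the mature genotypes did, and arrays of 1 group differed widely, with SDs of 0.85 to 1.53 (n = 2). The difference was -1.82 in immature cells (SE 0.84, 95% interval -3.77 to 0.12, adjusted p = 1 in limma). In mature cells it was -1.48 (SE 0.84, 95% interval -3.43 to 0.46, adjusted p = 1). Averaged over both stages it was -1.65 (SE 0.60, unadjusted p = 0.0244, adjusted p = 0.750), which did not pass. With replicate number as a block it passed (adjusted p = 0.0108 in limma), among 59 genes called. No label makes the numbers pairs, so that fit is only an alternative. The size hung on single arrays: the mature difference was -0.41 without wild type mature 1, -0.88 without Ezh2-deficient mature 2 and -2.56 without wild type mature 2. The immature difference was -1.10 without wild type immature 1 and -1.05 without Ezh2-deficient immature 2. Quantile normalization without background correction gave -0.89 averaged over both stages. On the replicate 3 arrays the order by label was turned: Mcpt8 was not detected on those labelled wild type, at 4.82 and 4.76, and read 6.68 and 6.09 on those labelled Ezh2-deficient. The replicate 3 arrays labelled wild type were those with Cdkn2a at 8.08 and 7.63.

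Fcer1a, the IgE-binding chain of the receptor, ran alongside Mcpt8. It read 7.47 and 6.42 in wild type immature cells and 6.56 and 5.36 in Ezh2-deficient immature cells. Mature cells read 7.34 and 5.76 in wild type, and 5.61 and 4.61, the latter not detected, in Ezh2-deficient cells. The genotypes overlapped when immature and were separated by a small gap when mature. The differences were -0.98 (SE 0.65, 95% interval -2.48 to 0.51, adjusted p = 1 in limma) in immature and -1.44 (SE 0.65, 95% interval -2.93 to 0.06, adjusted p = 1) in mature cells. Averaged over both stages the difference was -1.21 (SE 0.46, unadjusted p = 0.0300, adjusted p = 0.784). With replicate number as a block it passed (adjusted p = 0.0226 in limma), though no label makes the numbers pairs. Replicate 1 again read above replicate 2 in each group. Within numbers 1 and 2 the differences were -0.91 and -1.06 in immature and -1.73 and -1.15 in mature cells. With 1 array left out, the Fcer1a mature difference was -0.65 without wild type mature 1, -0.94 without Ezh2-deficient mature 2 and -2.23 without wild type mature 2. Its immature difference was -0.46 without wild type immature 1, -0.38 without Ezh2-deficient immature 2, -1.51 without wild type immature 2 and -1.58 without Ezh2-deficient immature 1. Without background correction the average was -0.57. Replicate 3 was again turned by label, with Fcer1a not detected under the wild type labels (4.61 and 4.77), where Cdkn2a was high, and at 6.38 and 5.71 under the Ezh2-deficient ones. A second, dimmer Fcer1a probe was detected on 4 of 12 arrays and gave -0.78 and -0.43. In these bulk cultures, fewer cells of a type and less RNA per cell cannot be told apart.

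Hdc was lower by 0.96 on the log2 scale in Ezh2-deficient immature cells (change -0.96, SE 0.22, 95% interval -1.46 to -0.45, unadjusted p = 0.0024), with no overlap of the arrays, but its adjusted p was 0.787 in limma. In mature cells its difference was -0.14 (SE 0.22, adjusted p = 1). The difference between its LPS changes, Ezh2-deficient minus wild type, was 0.82 (95% interval 0.11 to 1.53, unadjusted p = 0.0292, adjusted p = 1). With limma 0 of the 10908 genes, or 0% and 0 members, passed that test of the difference, where 169 had an unadjusted p under 0.05. Kit differed between genotypes by 0.09 in immature (95% interval -0.59 to 0.76) and 0.41 in mature cells (-0.26 to 1.08). Gata2 differed by 0.03 (-0.60 to 0.65) and 0.11 (-0.52 to 0.73), and Cpa3 by 0.63 (-0.51 to 1.78) and 0.07 (-1.08 to 1.22). These intervals leave room for differences in either direction.

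Prg2, the eosinophil granule protein, varied more within groups than between them. It read 10.44 and 9.39 in wild type immature cells, 9.66 and 8.32 in wild type mature cells, 10.64 and 7.34 in Ezh2-deficient immature cells, and 9.92 and 8.48 in Ezh2-deficient mature cells. All groups overlapped. The SD of the Ezh2-deficient immature group was 2.33 (n = 2). Its changes with genotype were -0.92 (SE 1.02) and 0.21, and with LPS -0.92 and 0.21, none of them called (adjusted p = 0.526 to 1 in limma). Without Ezh2-deficient immature 2 the immature genotype difference went from -0.92 to 0.73, and without Ezh2-deficient immature 1 it went to -2.57. The replicate 3 arrays read 6.39 to 8.10.

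**Figure D2:**
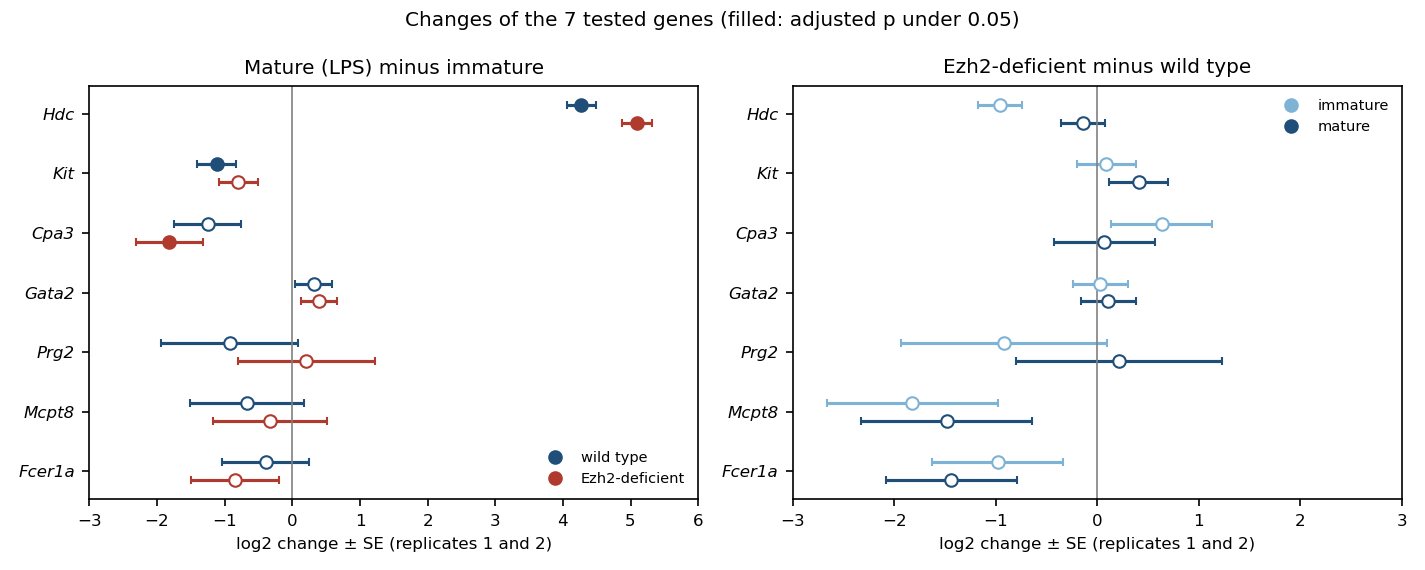
Log2 change with its SE for the 7 tested genes, on the left for mature against immature cells in each genotype and on the right for Ezh2-deficient against wild type cells at each stage, with filled points for an adjusted p under 0.05. Filled points are limited to Hdc in both LPS comparisons, Kit in wild type and Cpa3 in Ezh2-deficient cells, and the right side has none.

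Mcpt8 and Fcer1a followed each other closely over the arrays. Their Pearson correlation was 0.98 over the 12 arrays (Spearman 0.93) and 0.97 over the 8 arrays of replicates 1 and 2. The gene nearest to the pair outside the set was Prss34, a serine protease of basophil granules, which correlated at 0.95 with Mcpt8 and 0.93 with Fcer1a over 12 arrays. Prss34 read 10.07 and 7.68 in wild type immature cells and 8.78 and 5.34 in Ezh2-deficient immature cells, and 9.76 and 7.19 against 8.12 and 5.23, the last not detected, in mature cells. Its genotype differences were -1.82 (SE 1.45) and -1.80 (SE 1.45), with an adjusted p of 1 in limma for each. In replicate 3 its levels were 5.98 and 5.67 under the wild type labels and 7.79 and 7.64 under the Ezh2-deficient labels. All 3 genes were thus lower under the wild type labels of replicate 3 than under its Ezh2-deficient labels, the opposite of the order of the group means in replicates 1 and 2. Within each replicate number, all 3 genes were lower on the arrays with high Cdkn2a than on the others. Cdkn2a is also a gene by which the replicate 3 labels were found to conflict, and it was added after its values were seen. The 3 genes run together, so they are not separate observations. Whether labels were exchanged was not tested. The arrays behind these correlations share their normalization.

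The tested genes of the basophil list, with Prss34 counted among them, had genotype differences in both directions, with 5 of 8 negative at each stage. Cd200r3, a basophil and mast cell surface receptor, was detected on 9 of 12 arrays and differed between genotypes by 0.46 (SE 0.36) in immature cells and 0.00 in mature cells. The chemokine Ccl4 differed by -0.49 (SE 0.17) and -0.87 (SE 0.17), and Ccl3 by -0.30 (SE 0.19) and -0.60 (SE 0.19), with no overlap of the genotypes and no adjusted p under 0.05 in limma (0.33 for Ccl4 and 0.862 for Ccl3 in mature cells). Of the 10 basophil list genes, 8 were tested, and 0 were called for genotype. With LPS 3 rose and 1 fell in each genotype, beside the shares over all genes given above. The risen genes were Il6, Ccl3 and Ccl4, inflammatory products that dendritic cells make as well, with Il6 up by 5.83 in wild type cells (SE 0.24, adjusted p = 4.3e-05 in limma). Itgb7, an integrin chain, fell by 4.39 (SE 0.56, adjusted p = 0.0012).

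The genes nearest to Prg2 over 12 arrays were Ngp, Luc7l, Epx, Atp6v1h and Mgrn1, at 0.82 to 0.88. Its correlation with Epx, the eosinophil peroxidase, was 0.86 over 12 arrays (Spearman 0.87), although Epx was detected on 4 arrays only, and that with Ngp, a neutrophil granule protein, was 0.88. Of the other eosinophil list genes with a probe, Il5ra and Siglecf were detected on 0 of 12 arrays and Prg3 on 1, while Ear6, an eosinophil ribonuclease, was detected on 11 and Alox15 on 6. Of the 3 eosinophil genes tested, 0 were called for genotype, and 1, Alox15, fell with LPS in each genotype. All 14 neutrophil genes with a probe were tested. In the genotype comparisons 0 of 14 were called and 12 of 14 had a negative change at each stage. The median was -0.48 in immature and -0.48 in mature cells, beside -0.01 over all genes in each. Their summed level, on the log2 scale, was 15.5 and 14.7 in wild type immature cells, 15.2 and 14.3 in Ezh2-deficient immature cells, 15.8 and 15.4 in wild type mature cells, and 15.6 and 15.001 in Ezh2-deficient mature cells. In mature cells this sum was carried largely by Lcn2, at 14.38 to 15.27 there, while 12 of the 14 genes had a negative LPS change in each genotype. Because each probe has its own brightness, the sum does not show which gene had the most RNA. Their part in the differences of Mcpt8, Fcer1a and Prg2 was not tested.

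**Figure D3:**
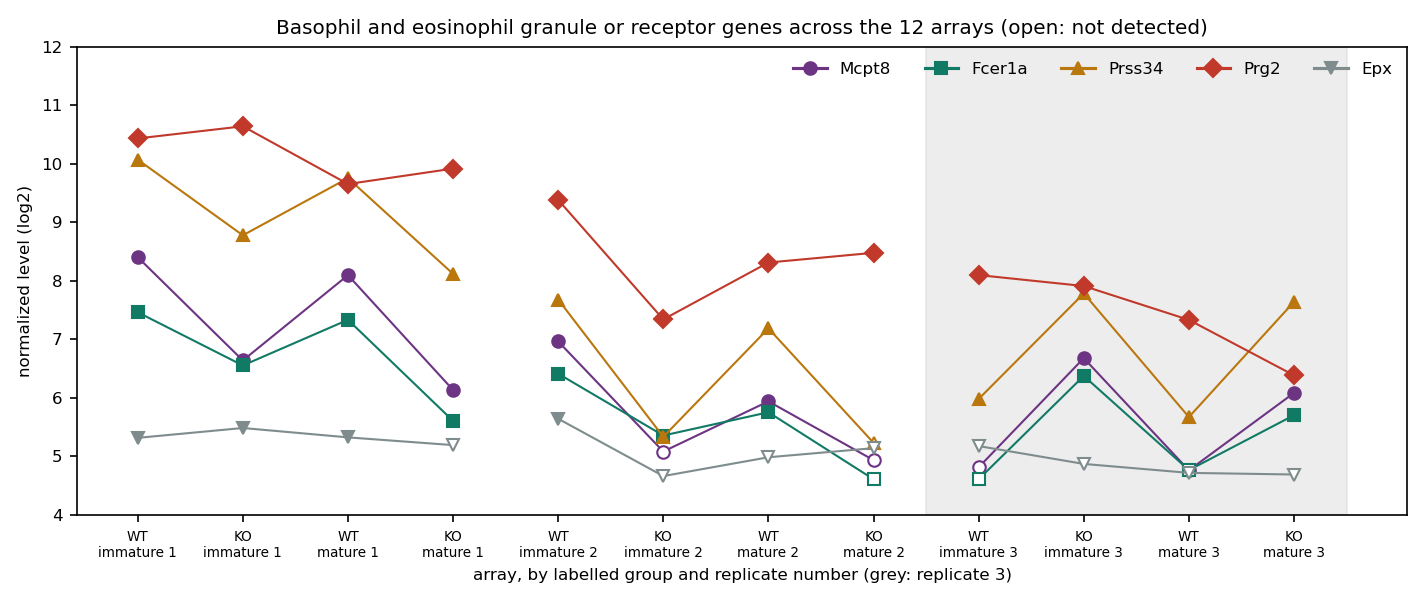
Normalized level (log2) of Mcpt8, Fcer1a, Prss34, Prg2 and Epx on the 12 arrays, ordered by replicate number and labelled group, with lines joining the 4 arrays of a number, open symbols for probes not detected and grey shading over replicate 3. Mcpt8, Fcer1a and Prss34 move together and are highest on the wild type arrays of replicate 1, while Prg2 stands at 9.66 to 10.64 in replicate 1 and 7.34 to 9.39 in replicate 2.

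The members did not form a single pattern. The correlation of each with the mean of the other tested members over 12 arrays was 0.78 for Prg2, 0.76 for Mcpt8, 0.73 for Fcer1a and 0.42 for Cpa3, but 0.07 for Gata2, -0.32 for Hdc and -0.34 for Kit. Hdc and Kit ran in opposite directions, at -0.88 over 12 arrays (Spearman -0.80). The genes nearest to Hdc were Cxcl10, Schip1, Kctd1, Il6 and Tnip1, each at 0.99, among them LPS-induced cytokines. Those nearest to Kit included Cep55, a cell division protein, and Nucks1, both at 0.95. The 8 genes most like the mean of the 7 members were Prpf39 (0.90), Ngp (0.88), Mgrn1 (0.88), Arid1a (0.86), Prss34 (0.85), Amd2 (0.84), Olfr1390 (0.84) and S100a9 (0.84), in Pearson correlation over 12 arrays.

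Genes that carry the IgE receptor signal were mostly present, and several fell with LPS. Fcer1g, the shared gamma chain, was detected on all 12 arrays at 14.66 to 15.80, in contrast to Ms4a2. Of 11 tested signalling genes, 1 rose and 4 fell in each genotype. Over all genes 12.6% rose and 17.7% fell in wild type cells, and 15.2% and 20.8% in Ezh2-deficient cells. The kinase Fyn rose by 1.36 in wild type (SE 0.32, adjusted p = 0.0160 in limma) and 1.41 in Ezh2-deficient cells. The adaptor Lat2 fell by 1.86 in wild type (SE 0.40, adjusted p = 0.0102) and fell by 2.87 in Ezh2-deficient cells (SE 0.40, adjusted p = 0.0013). The phospholipase Plcg2, the kinase Btk and the phosphatase Inpp5d also fell in each genotype. Genotype calls numbered 0 of 11. These proteins also serve other receptors of myeloid cells.

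Receptors that mast cells and basophils use for growth or activation were called in both directions. Of 9 tested, 2 rose and 3 fell in each genotype, beside the shares over all genes given above. Il18r1, a chain of the interleukin-18 receptor, fell by 3.81 in wild type (SE 0.36, adjusted p = 0.00044 in limma) and fell by 3.89 in Ezh2-deficient cells (SE 0.36, adjusted p = 0.00028). Its partner Il18rap fell by at least 2.68-fold and at least 3.01-fold. Adora3, the adenosine A3 receptor, read 8.49 and 9.29 in wild type immature cells and 5.88 and 4.57, the latter not detected, in wild type mature cells. Adora3 fell by 3.66 in wild type (SE 0.50, adjusted p = 0.0015) and fell by 3.65 in Ezh2-deficient cells, where it read 5.75 and 5.19, the latter not detected, after LPS. With 1 of the 2 mature arrays of each genotype not well above background, these sizes are uncertain. Il4ra rose in each genotype, by 1.06 and 1.53, and Ccr3, Ptgdr2 and Mrgprb2, receptors typical of mature basophils, eosinophils or mast cells, were detected on 0 of 12 arrays.

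**Figure D4:**
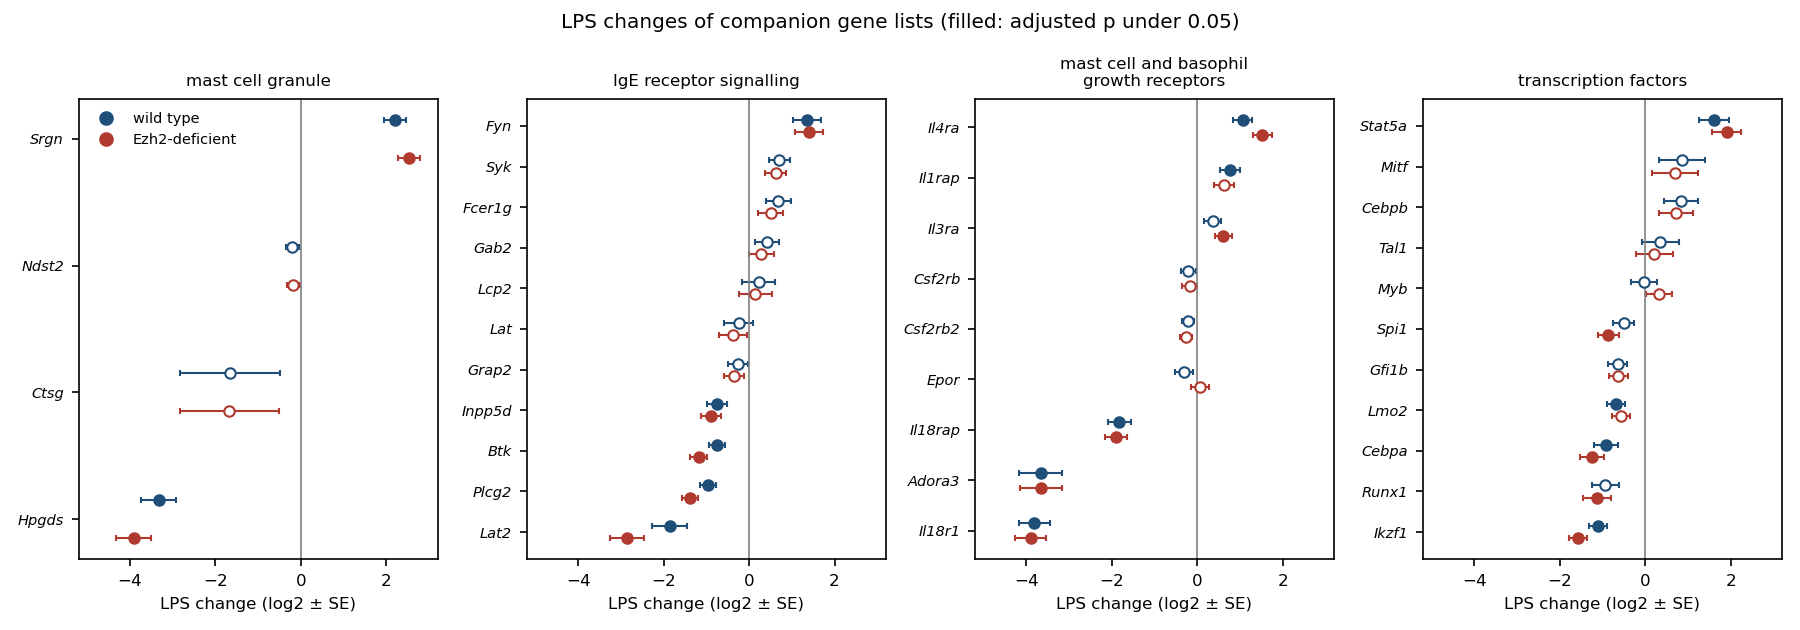
LPS change (log2, with SE, replicates 1 and 2) of the tested genes of 4 companion lists in wild type and Ezh2-deficient cells, with filled points for an adjusted p under 0.05. Hpgds, Il18r1 and Adora3 lie furthest to the left in both genotypes, Srgn, Fyn and Stat5a lie to the right, and the genotypes lie close to each other for most genes.

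Among ligands of the set, Il33, whose receptor is Il1rl1, rose by 1.62 in wild type (SE 0.44, adjusted p = 0.0273 in limma) and 2.71 in Ezh2-deficient cells (SE 0.44, adjusted p = 0.0027). Il33 read 5.22 and 5.13 in wild type immature cells, the latter not detected, and 7.30 and 6.29 after LPS. Ezh2-deficient cells read 5.19 and 5.43 before and 8.62 and 7.42 after. Of 4 tested ligands 1 rose in wild type and 2 in Ezh2-deficient cells, the other being Tslp, at least 1.38-fold. Kitl, the ligand of Kit, was detected on 1 of 12 arrays and Il3 on 0.

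Of 11 tested transcription factors, 1 rose and 3 fell in wild type cells, and 1 rose and 4 fell in Ezh2-deficient cells. The shares over all genes are those given above. Stat5a, a mediator of GM-CSF and interleukin-3 signals, rose by 1.61 (SE 0.35, adjusted p = 0.0103 in limma) and 1.90. Ikzf1 fell by 1.09 (SE 0.21, adjusted p = 0.0066) in wild type and fell by 1.58 in Ezh2-deficient cells, and Cebpa, a myeloid factor, fell in each genotype as well. Gata1, the partner factor of Gata2 in mast cells and erythroid cells, was detected on 0 of 12 arrays. The genotype comparisons called 0 of the 11 at each stage.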

How the data were processed

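Expression was measured on 12 bead arrays. The deposited intensity of each of 45281 probes was neither logged nor normalized, and a detection p-value was deposited beside it, per the file headers. The authors also deposited log2 values, whose quantiles matched logged rank means of the intensities to 0.00068. The submitters' processing notes name BeadStudio, limma and R 2.15.2, with no step given.

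Intensities were background-corrected and quantile-normalized over all 12 arrays with neqc (limma 3.58.1, R 4.3.3, offset 16). The detection filter kept the 21049 probes whose detection p was below 0.05 on 3 or more arrays. Of 45281 probes, 34885 had 1 symbol, 34807 of them updated through their identifier, and 18 had several. A gene was its detected probe with the highest mean, which left 10908 genes. Group means of the 8 arrays of replicates 1 and 2 were fitted with lmFit and eBayes with an intensity trend, in 6 comparisons, with two-sided p-values adjusted by Benjamini-Hochberg. The number of arrays limits the precision. The fit was tested on simulated data.

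The 9 members and the 14 companion lists were chosen with earlier results of these data known. Named genes were the members, Ezh2, list genes past the test or among the 3 brightest of a list, and the 8 genes most like the members; defining markers at or near 0 detections, nearest neighbours, Cdkn2a, Cd200r3, Epx and Prss34 were added after their values were seen. Alternatives were the array set, background correction, normalization, detection filter, probe use, replicate number as a block, the intensity trend and each array left out. RefSeq promoter windows (GRCm38.p6) were searched for 4 GATA motifs and TATAAA, with none given for Prg2.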

Additional observations from a re-analysis of the deposited data

How the results depend on the processing

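The results were recomputed under 10 other settings and with each of 8 arrays left out in turn. Of 420 recomputed values under other settings, 404 kept their direction or size and their side of the threshold, 7 moved, 5 gained and 4 lost a call. With 1 array left out, 290 of 336 held, 37 moved, 3 gained and 6 lost a call. No call reversed its direction. Deposited log2 values, quantile normalization without background correction, normexp with an offset, neqc over 8 arrays, no filter, a stricter filter, each probe on its own and eBayes without a trend changed no member's call in the gene-level results. With all 12 arrays as labelled, the members called with LPS numbered 0 in wild type and 0 in Ezh2-deficient cells, the median immature genotype change was -0.24, and 0 genes were called in any comparison. The cause was not tested, though the replicate 3 labels conflict with expression. With replicate number as a block, members called numbered 2 for genotype over both stages (Mcpt8 -1.65, adjusted p = 0.0108, and Fcer1a -1.21, 0.0226) and 4 for LPS in Ezh2-deficient cells, where Fcer1a (0.0150) and Kit (0.0194) were added, and Cpa3 passed in wild type cells (0.0029). The block changed no other member's call. Under it 16, 13 and 59 genes were called for genotype in immature cells, mature cells and both, against 3, 2 and 6. Arrays of 1 number deviated together over genes (correlations 0.22 to 0.72 in 8 arrays, -0.81 to 0.44 in 12), but no label makes the numbers pairs. With arrays left out in turn, members called ranged from 1 to 2 for LPS in wild type and 1 to 3 in Ezh2-deficient cells. Median member changes ranged from -1.24 to 0.40, -1.10 to 0.42, -1.19 to -0.17 and -0.44 to 0.49 for LPS in wild type, LPS in Ezh2-deficient, genotype in immature cells and the LPS difference. Genes called ranged from 0 to 5 (immature), 0 to 2 (mature), 2 to 6 (both), 1784 to 3461 (LPS, wild type) and 2374 to 3961 (LPS, Ezh2-deficient). Where a group kept 1 array, it was assumed to vary like the others. Without the filter 4 genes were called in mature cells, and of 21049 probes on their own 4 were called in mature cells, 10 in both stages, and 5650 and 6650 with LPS. A slide or scan block was not run, since the headers give neither. Mcpt8, Fcer1a, Ms4a2 and Epx lay at or near the detection limit on several arrays, which limits their changes.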

Other observations

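Markers of cells that no result above turns on were counted in the same fits. With LPS 12.6% of all genes rose and 17.7% fell in wild type cells, and 15.2% and 20.8% in Ezh2-deficient cells. Of 9 macrophage genes tested, 1 rose and 4 fell with LPS in wild type cells and 1 rose and 5 fell in Ezh2-deficient cells, among them the complement genes C1qb and C1qc, which fell in each genotype. Of 13 dendritic cell genes, 3 rose and 1 fell in wild type cells, and 4 rose and 2 fell in Ezh2-deficient cells, where Irf8 rose by 2.18 (SE 0.28, adjusted p = 0.00096 in limma). Of 14 neutrophil genes, 1 rose and 3 fell in each genotype, and Lcn2, a siderophore-binding protein that LPS induces in many cells, was the one that rose. Of 5 blood progenitor genes 1, Sox4, fell in each genotype, of 7 megakaryocyte and erythroid genes 1, Car2, rose in each, and of 5 T and NK cell genes 2, Cd3d and Cd3g, fell in each. The only B cell gene tested, Cd79b, rose in Ezh2-deficient cells. For genotype, Cd3g was called, higher in Ezh2-deficient immature cells and over both stages, and none of the other tested genes of the 14 lists was called at either stage or over both.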
